A study of Homo sapiens with 29 samples.

Results

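KNG1, SERPIND1 and GC encode 3 plasma proteins that in the body come mainly from the liver, and their transcripts were followed in tumors of a colorectal cancer cell line. They are 3 of the 13492 genes in the table of scaled read counts, found by symbol, and all 3 were among the 13373 genes that reached at least 1 CPM in at least 5 libraries. They were chosen by their differences in level between treatments in these same libraries. Their differences between treatments are therefore given as a description, with standard errors and no test; only their correlations within a group, which did not enter the choice, were tested. All libraries came from COLO320DM, a human colorectal adenocarcinoma line, grown as xenografts in mice and sampled at 48 h; the mice were randomized once tumors had formed. PolyA RNA was sequenced from tumors given Helicon4_100mpk (n = 5 libraries), Helicon4_30mpk (n = 6), Helicon4neg_30mpk (n = 8) or vehicle (n = 10), with doses in the labelled unit mpk; Helicon4 is a helicon peptide aimed at β-catenin and TCF. The labels give no structure for Helicon4 or Helicon4neg, no strain for the mice and no statement that libraries of a group came from separate animals, so errors and p-values measure only the spread between these libraries. The study rests on 1 cell line and 1 time point.

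Kininogen, the product of KNG1, is the precursor of the peptide bradykinin, takes part in the contact phase of clotting, and inhibits cysteine proteases. Heparin cofactor II, the product of SERPIND1, is a serpin that traps thrombin, and dermatan sulfate and heparin speed up this reaction. GC encodes the vitamin D-binding protein, which carries vitamin D metabolites in plasma and binds actin released from damaged cells. β-catenin activates genes of the Wnt pathway through TCF and LEF factors at DNA sites related to ATCAAAG, while HNF1 and HNF4 factors act at many liver genes.

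Promoters from 250 bases before to 50 bases after the transcription start were taken from RefSeq on GRCh38.p14 for KNG1 (chr3:186717109-186717408, plus strand) and SERPIND1 (chr22:20773863-20774162, plus strand). The promoter set used here had no entry for GC, so only these 2 genes are shown. Capitals mark matches to the motifs searched on both strands: ATCAAAG for TCF/LEF, CAAAGTNCA for HNF4-type repeats and GTTAAT for HNF1.
KNG1: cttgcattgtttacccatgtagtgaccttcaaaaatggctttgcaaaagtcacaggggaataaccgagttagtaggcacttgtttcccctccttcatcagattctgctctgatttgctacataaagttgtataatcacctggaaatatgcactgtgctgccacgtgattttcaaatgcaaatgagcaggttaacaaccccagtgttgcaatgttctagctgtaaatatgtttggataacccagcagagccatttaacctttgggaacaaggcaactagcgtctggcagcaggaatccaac
SERPIND1: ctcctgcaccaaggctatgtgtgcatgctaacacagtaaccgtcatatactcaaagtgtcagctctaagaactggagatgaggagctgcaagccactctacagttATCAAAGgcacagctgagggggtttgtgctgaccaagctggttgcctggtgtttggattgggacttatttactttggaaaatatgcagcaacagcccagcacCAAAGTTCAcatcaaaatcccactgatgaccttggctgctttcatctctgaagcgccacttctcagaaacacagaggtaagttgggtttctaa
The SERPIND1 window held ATCAAAG from -145 to -139 and CAAAGTTCA from -43 to -35 relative to the start, both on the gene's own strand and without overlap. The KNG1 window matched none of the 3 motifs, and GTTAAT was in neither window. Of 35116 promoters of the same length, 2.62% held ATCAAAG, 1.1% held CAAAGTNCA and 6.88% held GTTAAT. A match describes letters only. Positions count from the RefSeq start, and the start of the GENCODE gene lies further upstream within the window, so that both matches fall inside the gene as GENCODE draws it.

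In GENCODE 29 on GRCh38, KNG1 (ENSG00000113889) spans chr3:186717276-186744410 on the plus strand, SERPIND1 (ENSG00000099937) chr22:20773879-20787720 on the plus strand and GC (ENSG00000145321) chr4:71741693-71804041 on the minus strand. SERPIND1 lies wholly within PI4KA, a lipid kinase gene on the opposite strand, and shares 0 exonic bases with it. An antisense gene, AC068631.1, overlaps KNG1, and the strand setting of the authors' counting is not given in the sources used here, so reads of the pair cannot be told apart. PI4KA averaged 119 ± 23.9 CPM with Helicon4_100mpk, 140 ± 13.5 with Helicon4_30mpk, 136 ± 29.3 with Helicon4neg_30mpk and 127 ± 21.5 with vehicle (SD over libraries).

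Depth was 26.8 to 61.6 M recovered reads per library. Helicon4neg library 2 and vehicle library 6 stood apart in the slope of their log2 values on gene length, at -0.321 and -0.186. Totals of calls over all genes are also given without Helicon4neg library 2. Levels and ranges include both libraries, as do the list counts unless a library is said to be left out. Sample titles carry codes of unstated meaning, and no code holds vehicle together with Helicon4. The 4 listed Wnt target genes (AXIN2, NKD1, SP5 and DKK4) all fell with either dose of Helicon4 against vehicle. Of all genes 15.9% fell at the higher dose and 5.22% at the lower. The 4 were chosen with earlier results of these data known, so their fall is no independent check of the labels. AXIN2 averaged 268 ± 41.5 CPM with Helicon4_100mpk, 378 ± 34.03 with Helicon4_30mpk, 558 ± 68.5 with Helicon4neg_30mpk and 483 ± 45.5 with vehicle. Reads of the mouse host may have been counted under human genes, since no mouse genome is named, and this was not tested.

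KNG1 was higher with Helicon4 at both doses than with vehicle or Helicon4neg. The 5 Helicon4_100mpk libraries had 25.7, 25.5, 25.4, 6.26 and 15.3 CPM, in the order of libraries 1 to 5. Helicon4_30mpk libraries ran from 10.5 to 14.4 CPM (median 12.5), Helicon4neg_30mpk libraries from 2.78 to 3.75 (median 3.35) and vehicle libraries from 3.47 to 5.72 (median 4.13). At the higher dose 3 libraries stood close together near the top, library 5 lay only just above the range of the lower dose, and library 4 lay between the lower dose and vehicle. No library of either Helicon4 dose fell within the vehicle range, while Helicon4neg and vehicle overlapped. Behind these levels were 390 to 1128 reads per Helicon4_100mpk library, 507 to 669 per Helicon4_30mpk library, 66 to 222 per Helicon4neg_30mpk library and 112 to 249 per vehicle library.

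The KNG1 mean was 19.6 ± 8.69 CPM with Helicon4_100mpk and 4.23 ± 0.593 CPM with vehicle (SD), a ratio of 4.64, and the difference in mean log2(CPM + 1) was 1.84 ± 0.19 (SE). With Helicon4_30mpk the mean was 12.5 ± 1.54 CPM, 2.95 times that of vehicle, with a log2 difference of 1.37 ± 0.18. Helicon4neg_30mpk averaged 3.32 ± 0.422 CPM, 0.784 times the vehicle mean, and the 95% interval of its log2 difference from vehicle ran from -0.60 to 0.05. Without library 4 the Helicon4_100mpk mean was 22.98 ± 5.10 CPM and the 4 libraries left no longer overlapped Helicon4_30mpk. The log2 difference between the doses was 0.47 ± 0.21 with library 4 and 0.81 without it. Higher levels per tumor in bulk RNA can reflect more RNA per cell or more cells that make it, which cannot be told apart here.

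SERPIND1 took the opposite course, and of the 3 genes it had the widest gap between Helicon4 and vehicle. Helicon4_100mpk libraries 1 to 5 had 0.592, 0.113, 0.561, 0.481 and 1.00 CPM. The range was 1.45 to 2.31 CPM with Helicon4_30mpk (median 1.55), 9.19 to 12.5 with Helicon4neg_30mpk (median 10.2) and 6.21 to 12.7 with vehicle (median 9.87). The 3 levels were stacked without overlap: every Helicon4_100mpk library lay below every Helicon4_30mpk library, and these lay below every Helicon4neg and vehicle library. The lowest library, number 2 at the higher dose, held 4 SERPIND1 reads, and the 5 libraries of that dose held 141 reads in all, against 470 for Helicon4_30mpk, 3902 for Helicon4neg_30mpk and 4211 for vehicle.

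The SERPIND1 mean was 0.550 ± 0.317 CPM with Helicon4_100mpk, 5.58% of the vehicle mean of 9.85 ± 2.00 CPM (SD). With Helicon4_30mpk it was 1.67 ± 0.328 CPM, 17.0% of vehicle. Helicon4neg_30mpk averaged 10.4 ± 1.07 CPM, 106% of vehicle. The log2 differences from vehicle were -2.81 ± 0.13 with Helicon4_100mpk, -2.01 ± 0.12 with Helicon4_30mpk and 0.09 ± 0.11 with Helicon4neg_30mpk (SE). Because 1 was added to each CPM before taking logs, the scale understates the difference of a gene this low: on recovered reads edgeR put it at -4.11 for Helicon4_100mpk and -2.56 for Helicon4_30mpk against vehicle. The step between the doses was -0.80 ± 0.14 on the log2(CPM + 1) scale.

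GC was lower at the higher dose, and at the lower dose its values overlapped those of vehicle. Helicon4_100mpk libraries 1 to 5 had 8.95, 8.42, 10.6, 7.30 and 26.3 CPM. The range was 20.7 to 31.6 CPM with Helicon4_30mpk (median 26.7), 25.1 to 32.7 with Helicon4neg_30mpk (median 28.6) and 23.02 to 50.7 with vehicle (median 37.0). Libraries 1 to 4 of the higher dose lay below every library of the other groups, and library 5 lay within the range of each of them. That library was also the highest of its dose in SERPIND1, but was not the one with the low KNG1 level.

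The GC mean was 12.3 ± 7.91 CPM with Helicon4_100mpk, 26.7 ± 4.49 with Helicon4_30mpk, 28.4 ± 2.64 with Helicon4neg_30mpk and 35.3 ± 8.28 with vehicle (SD). Log2 differences from vehicle were -1.56 ± 0.19 with Helicon4_100mpk, -0.37 ± 0.18 with Helicon4_30mpk and -0.27 ± 0.16 with Helicon4neg_30mpk (SE). The 95% interval for Helicon4_30mpk ran from -0.73 to -0.01, and 1 of its libraries lay below the lowest vehicle library. Without library 5 the Helicon4_100mpk mean was 8.82 ± 1.37 CPM, the log2 difference from vehicle was -1.86, and the 4 libraries left overlapped no other group. Between the doses the log2 difference was -1.19 ± 0.21, or -1.49 without library 5. The plot of levels by library shows the spread of each gene.

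**Figure D1:**
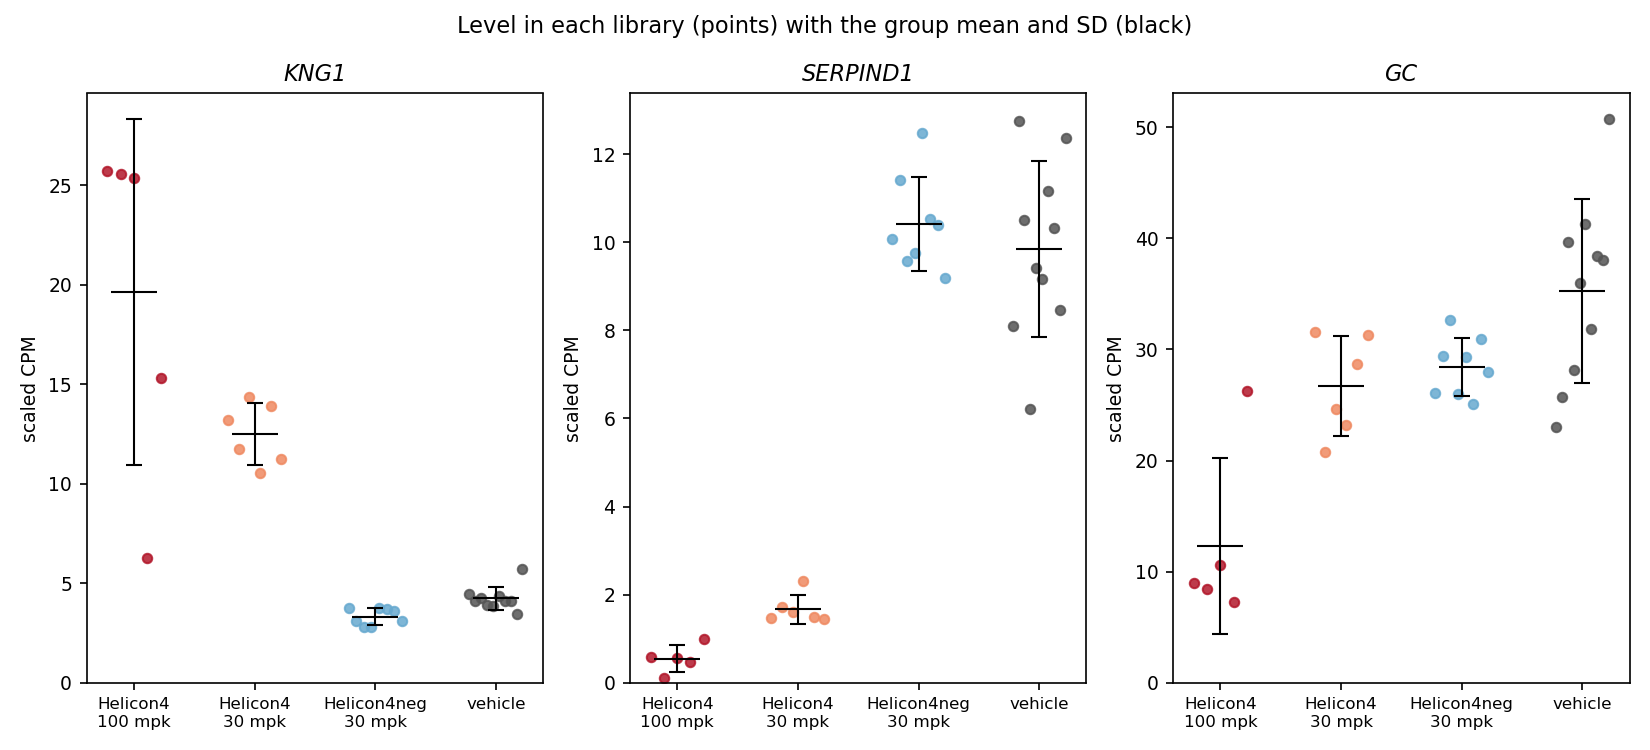
Scaled CPM of KNG1, SERPIND1 and GC (y axes, each from 0) in the 29 libraries, by treatment; points are libraries in replicate order, black bars the group mean and SD. KNG1 is high and SERPIND1 low with both doses of Helicon4, while GC is low in 4 of 5 libraries of Helicon4_100mpk and overlaps vehicle with Helicon4_30mpk.

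Per kilobase of the lengths in the table, KNG1 averaged 5.25 ± 2.32 CPM per kb with Helicon4_100mpk, GC 5.17 ± 3.32 and SERPIND1 0.215 ± 0.124 (SD), so that KNG1 and GC differed by less than their spread. With Helicon4_30mpk GC came first at 11.2 CPM per kb, then KNG1 at 3.34 and SERPIND1 at 0.654. The order was another in vehicle tumors, with GC at 14.8 CPM per kb, SERPIND1 at 3.86 and KNG1 at 1.13. Across the 4 groups, the order of group means was Helicon4_100mpk, Helicon4_30mpk, vehicle, Helicon4neg_30mpk for KNG1 from high to low. For SERPIND1 it was Helicon4neg_30mpk, vehicle, Helicon4_30mpk, Helicon4_100mpk, and Helicon4neg and vehicle did not differ beyond their spread. For GC it was vehicle, Helicon4neg_30mpk, Helicon4_30mpk, Helicon4_100mpk, and vehicle, Helicon4neg and the lower dose overlapped.

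Helicon4 and Helicon4neg can be compared at a matched dose in 1 pair, 30 mpk. KNG1 was 12.5 ± 1.54 CPM with Helicon4_30mpk and 3.32 ± 0.422 CPM with Helicon4neg_30mpk, a log2 difference of 1.64 ± 0.18 (SE). SERPIND1 was 1.67 ± 0.328 CPM with Helicon4_30mpk and 10.4 ± 1.07 CPM with Helicon4neg_30mpk, a log2 difference of -2.10 ± 0.12. For GC the log2 difference between the compounds was -0.10, with a 95% interval from -0.48 to 0.28. The 2 compounds thus separated without overlap for KNG1 and SERPIND1 at this dose, and for GC the interval included 0.

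Groups that do not overlap are not rare among all genes. Of the 13373 genes, 4.67% had Helicon4_100mpk libraries all above vehicle, as KNG1 did, and 4.13% all below, as SERPIND1 did. The shares were 1.96% above and 2.39% below for Helicon4_30mpk against vehicle, 0.202% and 0.307% for Helicon4neg_30mpk against vehicle, 3.78% and 3.32% for Helicon4_30mpk against Helicon4neg_30mpk, and 2.21% and 1.71% for Helicon4_100mpk against Helicon4_30mpk. By size of the log2 difference, SERPIND1 stood 8th, KNG1 66th and GC 105th of 13373 for Helicon4_100mpk against vehicle. For Helicon4_30mpk against vehicle SERPIND1 stood 15th, KNG1 52nd and GC 1621st. Since the genes were picked for such differences, these places support nothing further.

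**Figure D2:**
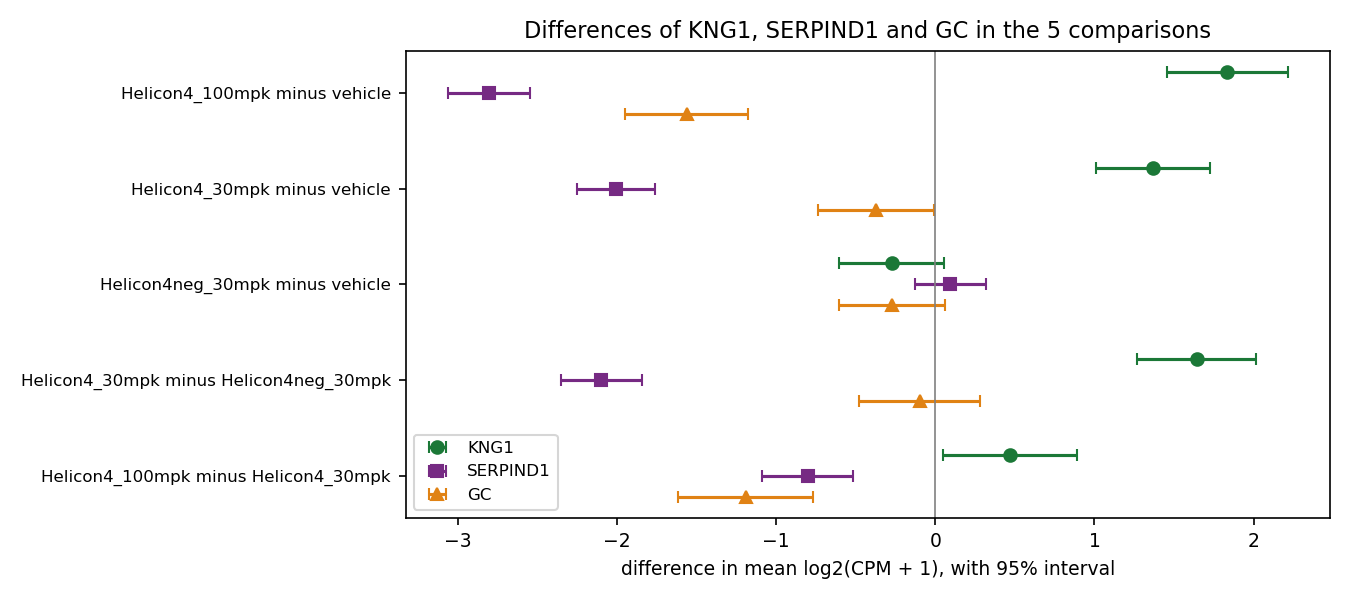
Difference in mean log2(CPM + 1) (x axis) of KNG1, SERPIND1 and GC in 5 comparisons (rows), with 95% intervals from the fit of all genes; the group named first is higher to the right of 0. KNG1 lies right of 0 and SERPIND1 left of 0 wherever Helicon4 is set against vehicle or Helicon4neg, and GC lies farthest from 0 where Helicon4_100mpk is involved.

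Comparisons within 1 title code could be made for 3 pairs of groups, on few libraries. In code SH7083, which held 4 Helicon4_100mpk libraries and 1 Helicon4_30mpk library, log2 differences were 0.65 for KNG1, -0.78 for SERPIND1 and -1.73 for GC. In code SH7081, with 1 Helicon4_30mpk and 3 Helicon4neg_30mpk libraries, they were 1.67 for KNG1, -2.16 for SERPIND1 and 0.17 for GC. In code SH7080, with 5 Helicon4neg_30mpk and 2 vehicle libraries, they were -0.38 for KNG1, 0.04 for SERPIND1 and -0.60 for GC. KNG1 and SERPIND1 thus kept their direction within codes, and GC changed sign between Helicon4 and Helicon4neg, where its pooled difference was also near 0. Helicon4_100mpk library 5, the high one for GC, was the only library of code SH7084, so code and library cannot be told apart.

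Among libraries of the same group the 3 genes did not move together beyond the correction for 9 relations (log2(CPM + 1), permutation tests, exact below 10 libraries, two-sided). SERPIND1 and GC had Pearson's r of -0.664 (exact p = 0.118, adjusted p = 0.439) and Spearman's rho of -0.886 (exact p = 0.0333, adjusted p = 0.3) in the 6 Helicon4_30mpk libraries, and r = -0.981 over the 4 left after dropping the libraries farthest from the SERPIND1 median. KNG1 and SERPIND1, which differed in opposite directions between treatments, had r = 0.519 (exact p = 0.195) and rho = 0.69 (exact p = 0.0694) in the 8 Helicon4neg_30mpk libraries, with adjusted p values of 0.439 and 0.312. In the 10 vehicle libraries the same pair had r = 0.469 (permutation p = 0.167) and rho = 0.248 (permutation p = 0.492), adjusted to 0.439 and 0.846, and r = 0.176 without the 2 farthest libraries. Within the 7 vehicle libraries of code SH7079 r was 0.459 for this pair. The other 6 relations had r between -0.613 and 0.371. Helicon4_100mpk, with 5 libraries, was not tested.

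AHSG, the gene of fetuin-A, a liver-made inhibitor of mineral deposition, lies 95.96 kb from KNG1 on chromosome 3 and was the closest of all tested genes to KNG1 once group means were taken out, with r = 0.797 over 29 libraries (a description of points that share groups). It is a low transcript. Helicon4_100mpk libraries 1 to 5 had 1.53, 1.22, 1.12, 0.321 and 1.07 CPM of AHSG, Helicon4_30mpk libraries 0.374 to 1.03 (median 0.666), Helicon4neg_30mpk libraries 0.0977 to 0.288 (median 0.141) and vehicle libraries 0.0261 to 0.296 (median 0.186). Library 4 of Helicon4_100mpk was the lowest of its group in AHSG as in KNG1, and the 6 Helicon4_30mpk libraries fell in the same order for both genes. Reads were few, from 1 to 16 per vehicle library and 20 to 67 per Helicon4_100mpk library. AHSG rose with Helicon4_100mpk (log2 difference 0.80 ± 0.11, adjusted p = 1.1e-06, limma) and with Helicon4_30mpk (0.53 ± 0.10, adjusted p = 0.000406), both against vehicle, and both calls held with any 1 library left out. It reached 1 CPM only in 5 Helicon4 libraries and entered the test through them, the groups in which it was high. With no such filter, over the 13492 genes in the table, the adjusted p values were 1.01e-06 and 0.000385. Of the listed genes called here, 7 others (PROZ, ITIH3, SERPINE2, CYP24A1, HNF4G, PDGFRA and DKK4) reached 1 CPM in under 5 libraries with Helicon4 or in under 5 without it. Each of their calls also held with no filter. Dropping the filter only raised the genes tested from 13373 to 13492. It therefore cannot undo a selection of genes through the groups in which they were high.

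**Figure D3:**
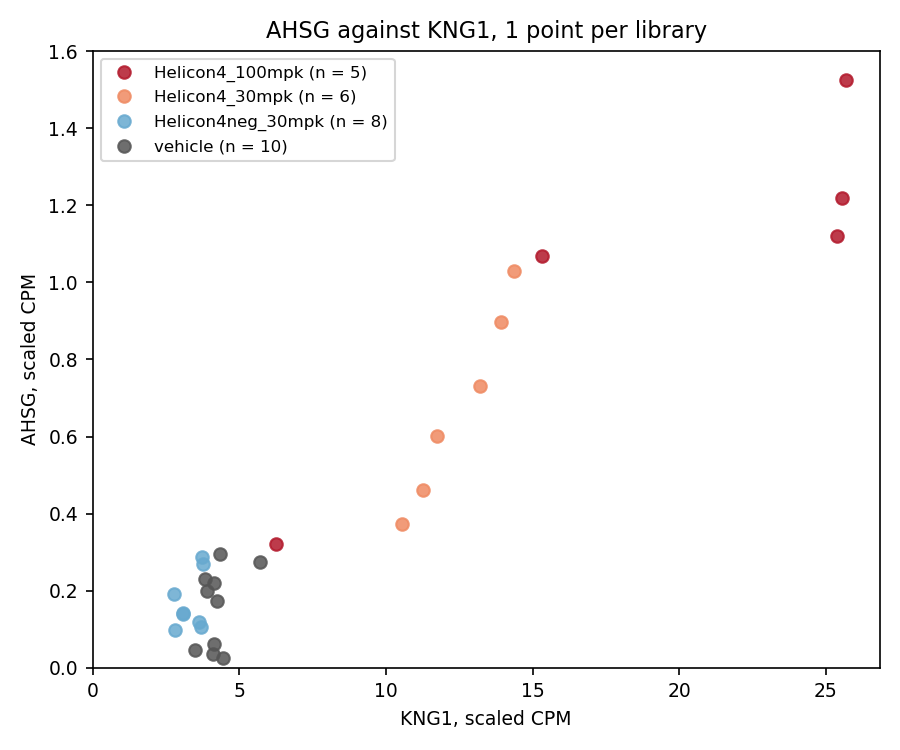
Scaled CPM of AHSG (y axis) against KNG1 (x axis), 1 point per library, coloured by treatment. Helicon4neg and vehicle libraries sit together at the lower left, Helicon4_30mpk libraries form a rising line, and the low Helicon4_100mpk point is library 4.

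Of 18 neighbours tested, 3 on either side of each gene, 2 rose (AHSG and SNAP29) and 4 fell (DNAJB11, RFC4, RP11-573D15.2 and MED15) with Helicon4_100mpk against vehicle, beside 14.3% and 15.9% of all genes, so that the 33.3% called were near the share over all genes. With Helicon4_30mpk 2 rose (AHSG and CXCL3) and 2 fell (DNAJB11 and RFC4), beside 5.86% and 5.22%. AHSG counts at both doses through the libraries in which it was high. The calls at the higher dose of RFC4, MED15 and SNAP29 ended without library 3 (adjusted p of up to 0.0644, 0.134 and 0.058 over the libraries left out), that of CXCL3 without Helicon4_30mpk library 2 (0.0537) and that of RFC4 at the lower dose without Helicon4_30mpk library 1 (0.0775). With Helicon4neg_30mpk 0 were called by limma, edgeR or DESeq2 (1 at an unadjusted p under 0.05), beside 2.21% and 2.62% of all genes. DNAJB11, a chaperone of the endoplasmic reticulum 131.5 kb from KNG1, had 140 ± 8.40 CPM with Helicon4_100mpk and 178 ± 16.3 CPM with vehicle, a log2 difference of -0.34 ± 0.08 (adjusted p = 0.00182). None of the 6 neighbours of GC was called with Helicon4_100mpk, and SLC4A4, a bicarbonate transporter 169.6 kb away, had 6.92 ± 1.52 CPM with Helicon4_100mpk and 5.46 ± 1.16 CPM with vehicle (adjusted p = 0.161).

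Genes whose levels followed each of the 3 most closely over all 29 libraries, by Pearson's r of log2(CPM + 1), were COL14A1 (0.95), TNMD (0.948), AHSG (0.943), GPA33 (0.937) and INPP1 (0.937) for KNG1. For SERPIND1 they were ZNF385C (0.979), ZAP70 (0.977), PYGL (0.976), ZNF831 (0.974) and PPFIBP2 (0.974). For GC they were PKP4 (0.845), CNDP1 (0.844), ARHGEF6 (0.84), SHISA6 (0.834) and FGFR1 (0.829). These points share treatment groups. With group means subtracted the leading genes were AHSG, KIAA0087, TNMD, CD4 and TFAP2B for KNG1 (r from 0.683 to 0.797), RPA1, DPYSL5, SHMT1, ARRB1 and TNFRSF1B for SERPIND1 (0.776 to 0.808), and SHISA6, CNTNAP4, PGM5, DPYSL3 and CACNG4 for GC (0.612 to 0.679). TNMD, the gene of tenomodulin, averaged 29.8 ± 11.7 CPM with Helicon4_100mpk, 13.1 ± 3.91 with Helicon4_30mpk, 3.97 ± 0.788 with Helicon4neg_30mpk and 3.83 ± 0.990 with vehicle.

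A list of 88 other plasma protein genes had 19 in the table, of which 16 were tested. With Helicon4_100mpk 6 of the 16 rose and 3 fell against vehicle (37.5% and 18.8%, beside 14.3% and 15.9% of all genes), and the median log2 difference of the 16 was 0.16, beside 0.0051 over all genes. AHSG is among the 6 and counts here through the libraries in which it was high. ITIH3 and PROZ, among the 3, reached 1 CPM in 0 Helicon4_100mpk libraries. SERPINF1, which encodes the antiangiogenic serpin PEDF, had 9.34 ± 1.77 CPM with Helicon4_100mpk and 4.03 ± 0.657 CPM with vehicle, a log2 difference of 1.03 ± 0.13 (adjusted p = 1.91e-07). The complement protease gene C1S rose by 0.82 ± 0.14 (adjusted p = 2.81e-05), and APOE, LRG1 and PROS1 rose by 0.80, 0.37 and 0.37. ITIH3, a hyaluronan-binding heavy chain of liver origin, had 0.318 ± 0.134 CPM with Helicon4_100mpk and 2.21 ± 0.758 CPM with vehicle, a log2 difference of -1.26 ± 0.16 (adjusted p = 3.06e-07), and F12 and PROZ, both clotting genes, differed by -0.73 and -0.33. The calls of PROS1 and PROZ ended when Helicon4_100mpk library 4 was left out, among others (adjusted p of up to 0.105 and 0.0646).

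The same list at the lower dose had 2 genes higher than vehicle, SERPINF1 (0.58 ± 0.12, adjusted p = 0.000948) and AHSG, and 1 lower, ITIH3 (-0.64 ± 0.15, adjusted p = 0.00362). The shares over all genes were 5.86% and 5.22%, and AHSG counts in this paragraph through the libraries in which it was high. With Helicon4neg_30mpk C1S rose by 0.71 ± 0.12 (adjusted p = 0.000534), with 21.1 ± 2.75 CPM against 12.6 ± 2.23 CPM with vehicle, while PROZ (-0.55 ± 0.09) and C5 (-0.50 ± 0.12) fell, beside 2.21% and 2.62% of all genes. PROZ reached 1 CPM in 3 vehicle, 2 Helicon4_30mpk and 0 Helicon4neg_30mpk libraries. ITIH3 did so in 10 vehicle, 8 Helicon4neg_30mpk and 3 Helicon4_30mpk libraries. Both also count in this paragraph through libraries in which they were high. Between the compounds at 30 mpk 4 rose (PROZ, SERPINF1, AHSG and C5) and 2 fell (ITIH3 and C1S) with Helicon4, beside 7.78% and 7.31% of all genes; the calls of SERPINF1 and C1S there ended without single Helicon4_30mpk libraries (adjusted p of up to 0.0863 and 0.0966). Between Helicon4_100mpk and Helicon4_30mpk 1 rose (C1S) and 1 fell (ITIH3), beside 1.74% and 1.86%, and both calls ended when single libraries of either dose were left out (adjusted p of up to 0.2 and 0.117). The plot of plasma protein genes gives all 16.

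**Figure D4:**
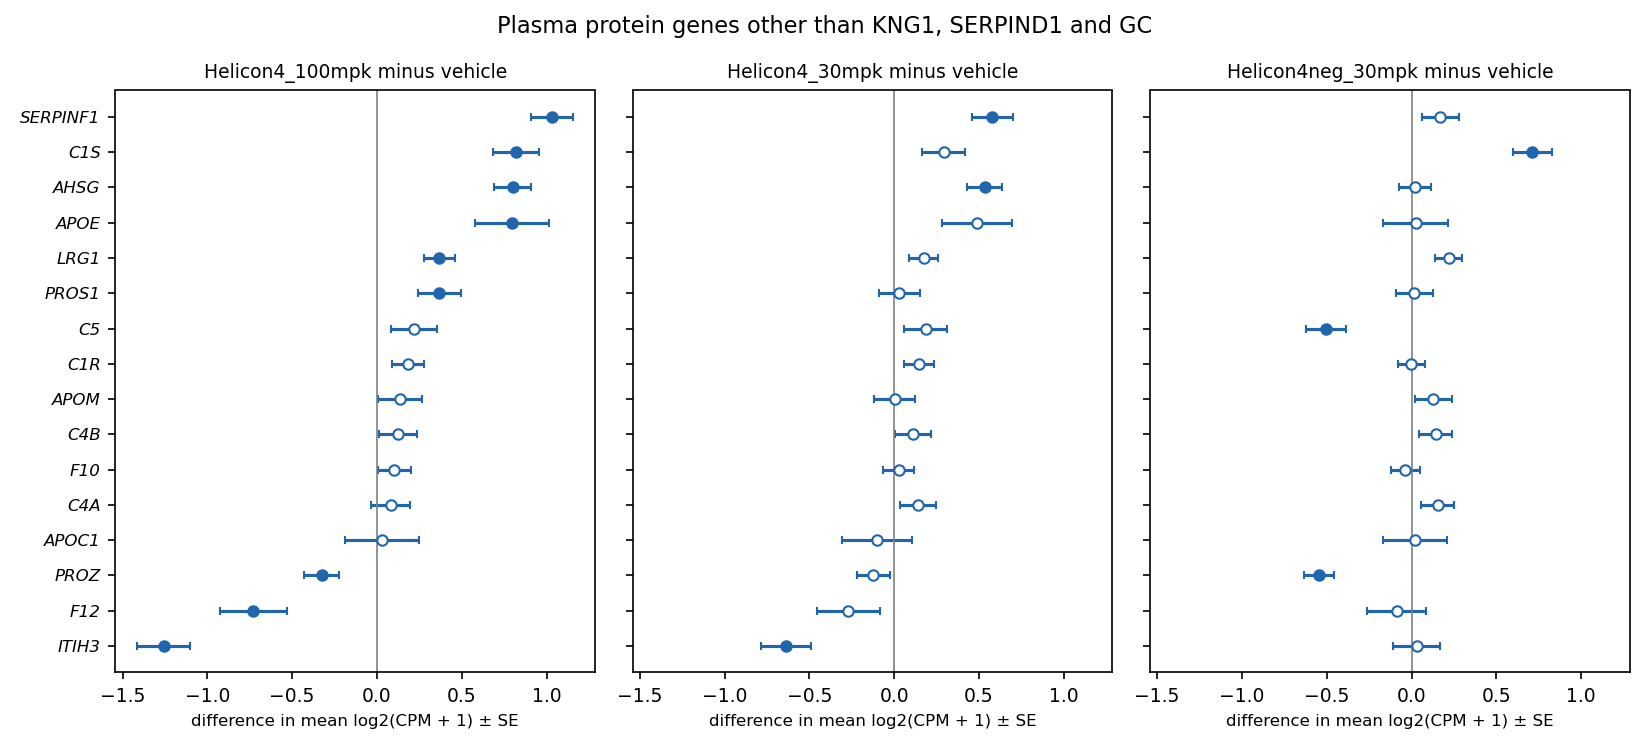
Difference in mean log2(CPM + 1) ± SE (x axes) of the 16 tested plasma protein genes other than KNG1, SERPIND1 and GC (rows) for 3 treatments, each against vehicle; filled points passed an adjusted p of 0.05. With Helicon4_100mpk 9 points are filled, and with Helicon4_30mpk and Helicon4neg_30mpk 3 each.

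Around KNG1, 16 genes of the kinin system were tested, and 2 rose and 5 fell with Helicon4_100mpk against vehicle (12.5% and 31.2%, beside 14.3% and 15.9% of all genes). Carboxypeptidase M, which trims kinins at the cell surface, is the product of a gene named CPM like the unit; its level was 6.30 ± 0.837 with Helicon4_100mpk and 2.67 ± 0.520 with vehicle (log2 difference 1.00 ± 0.12, adjusted p = 2.86e-07), and 5.54 ± 1.74 with Helicon4_30mpk (0.81 ± 0.12, adjusted p = 8.54e-06). CTSB, a cysteine protease of the class that kininogen inhibits, fell by 0.34 on the log2 scale with Helicon4_100mpk (adjusted p = 0.000324) and ECE1, an endothelin and kinin peptidase, by 0.39 (adjusted p = 0.000691). F12, which starts the contact phase, had 11.3 ± 2.48 CPM with Helicon4_100mpk and 19.6 ± 4.56 CPM with vehicle (adjusted p = 0.00577). The other calls were PRCP, higher, and C1QBP and CTSH, lower, each lost when some single library was left out (adjusted p of up to 0.207, 0.0833 and 0.159). With Helicon4_30mpk carboxypeptidase M rose and CTSB and C1QBP fell, beside 5.86% and 5.22% of all genes. The C1QBP call ended without Helicon4_30mpk library 1 or 5 (adjusted p of up to 0.0952). With Helicon4neg_30mpk limma and edgeR called 0 and DESeq2 1 (5 by limma at an unadjusted p under 0.05). Over all genes limma called 2.21% higher and 2.62% lower there.

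Around SERPIND1, 7 genes of thrombin reception and of dermatan sulfate synthesis or display were tested, and with Helicon4_100mpk 2 rose and 2 fell against vehicle (28.6% each, beside 14.3% and 15.9% of all genes). BGN, whose proteoglycan carries dermatan sulfate chains, had 11.5 ± 5.17 CPM with Helicon4_100mpk, 20.3 ± 3.97 with Helicon4_30mpk, 53.1 ± 5.92 with Helicon4neg_30mpk and 45.4 ± 9.92 with vehicle. Its log2 difference from vehicle was -1.94 ± 0.17 at the higher dose (adjusted p = 2.82e-10) and -1.10 ± 0.16 at the lower (adjusted p = 7.63e-06). SERPINE2, another thrombin-inhibiting serpin, had 1.67 ± 0.497 CPM with Helicon4_100mpk and 0.698 ± 0.178 CPM with vehicle (log2 difference 0.64 ± 0.11, adjusted p = 4.1e-05). CHST14 and DSE both take part in making dermatan sulfate, and they differed in sign: CHST14 fell (-0.36 ± 0.11) and DSE rose (0.42 ± 0.14), a call that ended without Helicon4_100mpk library 3 or 4 (adjusted p of up to 0.0717). Of 4 tested serpins other than SERPIND1, 3 rose with Helicon4_100mpk (SERPINF1, SERPINE2 and SERPINI1) and 0 fell, beside 14.3% and 15.9% of all genes. SERPINE2 reached 1 CPM in 5 Helicon4_100mpk libraries and 1 vehicle library. It counts in both lists through the libraries in which it was high. SERPINI1 had 12.7 ± 4.51 CPM with Helicon4_100mpk and 7.62 ± 1.48 CPM with vehicle (adjusted p = 0.000705), and with Helicon4neg_30mpk it was lower than vehicle, at 4.14 ± 0.392 CPM (adjusted p = 0.000443).

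Around GC, 10 genes of vitamin D handling and actin scavenging were tested, and with Helicon4_100mpk 2 rose and 3 fell against vehicle, beside 14.3% and 15.9% of all genes. CUBN, the receptor that takes up the vitamin D-binding protein in the kidney, had 6.69 ± 0.954 CPM with Helicon4_100mpk, 6.08 ± 0.609 with Helicon4_30mpk, 3.79 ± 0.721 with Helicon4neg_30mpk and 4.06 ± 0.948 with vehicle, and rose at both doses against vehicle (adjusted p = 0.000342 and 0.00371). GSN, the other main actin-binding protein of plasma, had 36.5 ± 6.04 CPM with Helicon4_100mpk and 24.04 ± 3.67 CPM with vehicle (log2 difference 0.58 ± 0.11, adjusted p = 0.000234). CYP24A1, which breaks down vitamin D hormone, had 0.428 ± 0.218 CPM with Helicon4_100mpk and 1.55 ± 0.968 CPM with vehicle (adjusted p = 0.0128). It reached 1 CPM in 0 Helicon4_100mpk libraries and 7 vehicle libraries. RXRG and CYP27B1 also fell, and both calls ended when single libraries were left out (adjusted p of up to 0.112 and 0.178). With Helicon4neg_30mpk limma, edgeR and DESeq2 called 0 of the 10, and 0 had an unadjusted p under 0.05, beside 2.21% and 2.62% of all genes called by limma.

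Of 22 transcription factors known for liver genes 10 were tested, and with Helicon4_100mpk 3 rose and 2 fell against vehicle, beside 14.3% and 15.9% of all genes. With Helicon4neg_30mpk 0 rose and 1 fell, beside 2.21% and 2.62% of all genes. That call ended when single libraries were left out (adjusted p of up to 0.112, limma). Among those that rose with Helicon4_100mpk, HNF4G differed by 0.53 ± 0.10 (adjusted p = 0.000262), and NR2F2 had 69.5 ± 15.8 CPM with Helicon4_100mpk and 42.2 ± 6.00 CPM with vehicle (log2 difference 0.69 ± 0.12, adjusted p = 3.38e-05). HNF4G reached 1 CPM in 5 Helicon4_100mpk libraries and 2 vehicle libraries, and counts here through libraries in which it was high. CEBPD, an acute-phase factor, had 1.23 ± 0.363 CPM with Helicon4_100mpk, 1.75 ± 0.387 with Helicon4_30mpk, 11.5 ± 3.05 with Helicon4neg_30mpk and 8.33 ± 3.56 with vehicle, and fell at both doses against vehicle (log2 differences -1.99 ± 0.20 and -1.69 ± 0.19, adjusted p = 3.96e-09 and 6.79e-08). Of 16 hepatocyte enzyme and surface genes only CPS1, CYP2E1 and TDO2 were in the table, and their summed level was 35.9 to 52.7 CPM with Helicon4_100mpk and 32.7 to 51.3 CPM with vehicle. Of these 3 genes 0 rose and 1 fell with Helicon4_100mpk against vehicle, beside 14.3% and 15.9% of all genes. TDO2 fell, at 2.25 ± 0.561 CPM against 5.06 ± 1.07 CPM with vehicle (adjusted p = 0.000394). CPS1 and CYP2E1 were not called and lay above 0, and the median log2 difference of the 3 was 0.16. With Helicon4neg_30mpk CYP2E1 was higher than vehicle (log2 difference 0.56, adjusted p = 0.0373, limma). The CYP2E1 call ended when single libraries were left out (adjusted p of up to 0.0991). The other 13 hepatocyte genes, and ALB, TTR and SERPINA1, were not analysed here.

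Sums of host-type markers are given as ranges over libraries and were not tested between groups. Of 7 endothelial markers 2 were in the table, CLDN5 and EGFL7. Their sum was 23.9 to 39.2 CPM with Helicon4_100mpk and 31.3 to 52.7 with Helicon4_30mpk. It was 40.0 to 146 (median 52.1) with Helicon4neg_30mpk and 38.7 to 94.2 (median 60.5) with vehicle. Both genes fell with Helicon4_100mpk against vehicle, beside 15.9% of all genes. CLDN5 differed by -1.86 (adjusted p = 1.04e-06, limma) and EGFL7 by -0.61 (adjusted p = 0.0415, limma). The EGFL7 call ended when single libraries were left out (adjusted p of up to 0.136). With Helicon4_30mpk CLDN5 fell too (-1.16, adjusted p = 0.000817, limma), beside 5.22% of all genes. The 4 of 7 fibroblast markers summed to 41.1 to 49.97 CPM with Helicon4_100mpk and 29.1 to 42.8 CPM with vehicle, and the 2 of 6 leukocyte markers to 20.7 to 34.4 CPM (median 30.2) with Helicon4_100mpk and 23.8 to 41.1 CPM (median 27.25) with vehicle. Single fibroblast markers went both ways with Helicon4_100mpk: COL1A1 and PDGFRA rose and PDGFRB fell, beside 14.3% and 15.9% of all genes. PDGFRA reached 1 CPM in 5 Helicon4_100mpk libraries and 0 vehicle libraries, and counts here through the libraries in which it was high. The PDGFRB call ended when single libraries were left out (adjusted p of up to 0.13, limma). Of the 2 leukocyte markers 0 rose and 1 fell with Helicon4_100mpk, beside 14.3% and 15.9% of all genes. CTSS fell (log2 difference -0.77, adjusted p = 0.000157, limma). The other marker was not called and lay above 0, and the median log2 difference of the 2 was -0.28. The 5 of 6 colorectal epithelial markers summed to 1919 to 2925 CPM with Helicon4_100mpk and 2294 to 4362 CPM with vehicle. That sum is nearly all CDX2, which averaged 2087 ± 408.6 CPM with Helicon4_100mpk and 3135 ± 568.3 CPM with vehicle, while EPCAM had 32.7 ± 3.81 CPM with Helicon4_100mpk and 27.9 ± 6.18 CPM with vehicle. With Helicon4neg_30mpk CDX2 was higher than vehicle (log2 difference 0.40, adjusted p = 0.0257, limma). That call ended without Helicon4neg library 4 or 7 (adjusted p of up to 0.0615). The part of these markers in the differences of KNG1, SERPIND1 and GC was not tested.

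A fit with the title code as a block can set Helicon4 against vehicle, which share no code, only through a chain of codes. That chain rests on 1 Helicon4_30mpk library in SH7083, 1 in SH7081 and 2 vehicle libraries in SH7080. With this block 0 of the 16 plasma protein genes passed in any of the 5 comparisons (3 to 6 at an unadjusted p under 0.05). Over all genes 74 rose and 67 fell with Helicon4_100mpk against vehicle, where 1913 and 2130 did without the block. Outside the Wnt genes, the named genes that still passed were CPM (carboxypeptidase M), BGN, PDGFRA, COL1A1, CTSB and CEBPD, each in at least 1 comparison. F12, PROZ, RXRG, HNF4G, EGFL7, RP11-573D15.2, MED15 and SNAP29 changed sign for Helicon4_100mpk against vehicle. Code and treatment are largely confounded and cannot be told apart for the rest. Of 119 calls of list genes and neighbours in the 5 comparisons, 83 held with any 1 library left out and 36 did not. For Helicon4neg_30mpk against vehicle the number called over all genes rested on Helicon4neg library 2: 296 rose and 351 fell with it, and 1306 and 1289 without it; without library 4 they were 169 and 224. For Helicon4_30mpk against vehicle 783 rose and 698 fell, 1203 and 1334 without Helicon4neg library 2, and 505 and 481 without Helicon4_30mpk library 1. For Helicon4_100mpk against Helicon4_30mpk 233 rose and 249 fell, 356 and 440 without Helicon4neg library 2, and 101 and 108 without Helicon4_100mpk library 2. Leaving out Helicon4_100mpk library 3 gave 125 and 127, Helicon4_30mpk library 2 134 and 147, and Helicon4_30mpk library 4 122 and 131.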

How the data were processed

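RNA-seq of polyA RNA was available for 29 libraries in 4 groups. The submitters' processing notes name the GRCh38 build, the trimmer Trimmomatic (0.39), the aligner STAR (2.7.7a), the counter featureCounts (Subread 2.4.2) and edgeR (4.0.2); settings and annotation are not given in the sources used here. The deposited values are a signal: the authors divided gene counts by an effective library size, which gives CPM after scaling between libraries (column sums 0.92 to 1.26 M). Multiples of 1 read came out whole within 0.05 reads for 100% of values in each library, which gave reads and depth.

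From these, log2(CPM + 1) of genes reaching 1 CPM in 5 or more libraries was fitted with limma 3.58.1 (trend and robust) in R 4.3.3, with all 4 groups in 1 fit, no covariate, two-sided tests and Benjamini-Hochberg adjustment over all genes at 0.05. Intervals and standard errors of the 3 genes come from this fit. The 3 genes and the lists were chosen with earlier results of these data known. Genes named from lists were the 4 with the smallest adjusted p for Helicon4_100mpk against vehicle, those called for Helicon4neg_30mpk, serpins called anywhere, 3 neighbours on either side in GENCODE 29 order (13479 of 13492 identifiers matched) and 5 closest genes by correlation with and without group means; other called list genes were named after their values were seen. Which of them are described was also chosen then, and 1 listed transcription factor is not reported here.

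Replicate numbers were not taken to pair libraries. Over 35 same-number pairs, correlations of residuals ran from -0.701 to 0.519, with 15 above 0.1. Pairs with different numbers were not set beside them, so pairing was not tested. The fit was tested on simulated data. Alternatives were a pseudocount of 0.1, other filters, TMM factors, limma without trend, 2-group fits, blocks, a length-slope covariate, each library left out, and edgeR 4.0.16 and DESeq2 1.42.0 on recovered reads; leaving out both libraries that stand apart in length slope was added after seeing the data.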

Additional observations from a re-analysis of the deposited data

Results flagged for a closer look

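Single libraries lay far from the rest of their group in 3 of 12 combinations of gene and group tested for a gap at either end, a check that chance alone trips in about 1 of 20 groups. GC in Helicon4_100mpk library 5 was 26.3 CPM, while the other 4 libraries of that group had 7.30 to 10.6 CPM. SERPIND1 in Helicon4_30mpk library 4 was 2.31 CPM, above the other 5 libraries, which had at most 1.71 CPM. KNG1 in vehicle library 10 was 5.72 CPM, above the other 9 vehicle libraries.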

How the results depend on the processing

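The log2 differences of KNG1, SERPIND1 and GC from vehicle or between groups stayed within the spread of libraries in 164 of 180 combinations with another processing and in all 222 with 1 library left out. The exceptions were larger in size: SERPIND1 for Helicon4_100mpk against vehicle was -4.09 with a pseudocount of 0.1, -4.11 with edgeR and -4.10 with DESeq2, for Helicon4_30mpk against vehicle -2.48, -2.56 and -2.55, for Helicon4_30mpk against Helicon4neg_30mpk -2.58, -2.64 and -2.64, and for Helicon4_100mpk against Helicon4_30mpk -1.61, -1.55 and -1.55. KNG1 for Helicon4_100mpk against vehicle was 2.21 with edgeR and 2.22 with DESeq2. GC with the title code as a block was -2.16 for Helicon4_100mpk against vehicle and -1.73 between the doses. The plasma protein genes called numbered 9, 3, 3, 6 and 2 for Helicon4_100mpk, Helicon4_30mpk and Helicon4neg_30mpk against vehicle, Helicon4_30mpk against Helicon4neg_30mpk and Helicon4_100mpk against Helicon4_30mpk; they were 4, 1, 1, 2 and 1 with at least 5 CPM, which leaves fewer genes to test, and 0 each with the title code as a block. With the length-slope covariate Helicon4_30mpk against vehicle had 6 and the doses 5; between the doses the replicate block gave 0, and the 2-group fit and edgeR 1 each. The replicate block gave 8, 3, 2 and 5 in the other comparisons. With 1 library left out the counts ran from 7 to 9, 3 to 3, 3 to 3, 5 to 7 and 0 to 2. For Helicon4_100mpk against vehicle the title code block reversed PROZ (0.17), F12 (0.25), RXRG (0.20), HNF4G (-0.17), EGFL7 (0.72), RP11-573D15.2 (0.31), MED15 (0.060) and SNAP29 (-0.11), and of 107 named calls it left 15. PTPRC for Helicon4_30mpk against vehicle was -0.35 with the length-slope covariate. The cause of these changes was not tested. Depth limits SERPIND1, AHSG and DKK4, with 4, 1 and 0 reads in their lowest libraries.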
